A study of Mus musculus with 6 samples.

Results

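Heart muscle that has been cut off from blood and then reperfused has to deal with iron from dying cardiomyocytes and from trapped red blood cells. This account describes 10 genes with a place in that traffic: Hmox1, Fth1, Ftl1, Ftl1-ps1, Slc40a1, Slc11a1, Slc11a2, Tfrc, Cp and Cd5l, of 35968 genes with transcripts in the data. They were picked by name from the genes of iron and heme handling and were selected on the LGK-974 against DMSO contrast of these same libraries. Their levels and fold changes are therefore given as a description, with no test. All 10 passed the filter on low counts, as did 20076 genes in all. Cd5l, a protein that macrophages secrete, is no iron handling protein itself, and Ftl1-ps1 carries the name of a pseudogene but is annotated as protein-coding.

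The libraries came from the infarct area of female C57BL/6 mice aged 12 weeks, taken 48 h after ischemia/reperfusion of the left anterior descending artery. In 3 mice LGK-974 was given by mouth directly after the procedure and then daily, and 3 mice received the DMSO vehicle. LGK-974 blocks Porcupine, the enzyme that adds the lipid without which Wnt proteins cannot leave the cell, and the comparison asks how the infarct transcriptome differs when Wnt secretion is blocked. No deletion or transgene is involved, and since the drug acts on a protein, the transcript of its target does not show which library received it. Transcripts downstream of Wnt were not examined here. C57BL/6 mice carry the loss-of-function allele of Slc11a1 in all groups, so for this gene only the transcript was followed. Infarct tissue is a mixture, and in such bulk samples fewer cells of a type and less RNA per cell cannot be told apart.

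Cells take up iron through the transferrin receptor (Tfrc), carry it across membranes with Slc11a2 or, in the phagosomes of macrophages, Slc11a1, and store it in ferritin, a shell of heavy (Fth1) and light (Ftl1) chains. Ferroportin (Slc40a1) is the exporter of iron, and ceruloplasmin (Cp) oxidizes the iron that leaves. Heme is broken down by heme oxygenase 1 (Hmox1) into iron, carbon monoxide and biliverdin, above all in macrophages that have eaten red blood cells. Much of this is controlled after transcription: when iron is scarce, iron regulatory proteins bind a hairpin, the iron-responsive element, and hold back translation where it lies in the 5′ untranslated region (UTR), or protect the mRNA from decay where it lies in the 3′ UTR.

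The hairpins are shown because they mark which of these transcripts can be read by that system, and which transcript variants lack it. The search asked for an unpaired C, 5 paired bases, the 6-base loop CAGTGN and the matching 5 bases on the other side, with G-T pairs and 1 unpaired base on the 3′ side allowed, on the sense strand of the GENCODE M21 transcripts of GRCm38. It matched 2.19% of 116728 transcripts and 4.97% of 21901 protein-coding genes, so a match alone is a description and not a working site. Capitals mark the 6-base loop, and each sequence is written 5′ to 3′ in DNA letters.
Fth1, 5′ UTR, chr19:9982733-9982759, plus strand: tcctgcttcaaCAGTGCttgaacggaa
Ftl1, 5′ UTR, chr7:45459780-45459806, minus strand: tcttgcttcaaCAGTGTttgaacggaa
Ftl1-ps1, 5′ UTR, chr13:74406429-74406455, plus strand: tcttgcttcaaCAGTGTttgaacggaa
Slc40a1, 5′ UTR, chr1:45925466-45925492, minus strand: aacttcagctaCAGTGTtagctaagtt
Tfrc, 3′ UTR, chr16:32631220-32631246, plus strand: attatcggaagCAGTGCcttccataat
Tfrc, 3′ UTR, chr16:32631599-32631625, plus strand: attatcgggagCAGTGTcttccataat
Tfrc, 3′ UTR, chr16:32631664-32631690, plus strand: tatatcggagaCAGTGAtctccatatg
Tfrc, 3′ UTR, chr16:32631711-32631737, plus strand: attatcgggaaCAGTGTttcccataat
Slc11a2, 3′ UTR, chr15:100395153-100395180, minus strand: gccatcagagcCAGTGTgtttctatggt
The Ftl1 and Ftl1-ps1 hairpins have the same 27 letters. The Slc11a2 hairpin is the only one printed here with an unpaired base on its 3′ side. In Slc11a1, Cp, Hmox1 and Cd5l no annotated transcript matched, which says only that these letters were not found.

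Before the values, the libraries have to be set beside each other. Estimated counts summed to between 41579787 and 80398211 per library, of which mitochondrial genes took from 28.1% to 53.6%. DMSO replicate 1 stood apart: the correlations of its log2 CPM with the other libraries, across genes, were 0.841 to 0.925, while those among the other 5 were 0.923 to 0.966. It also had counts on 98.1% of 2011 olfactory, vomeronasal and bitter taste receptor genes, sensory gene families that are mostly silent in heart, where the other libraries had 48.1% to 79.6%. The median count of these receptor genes per kb was 27.4 in DMSO replicate 1, 8.80 in DMSO replicate 2, 1.15 in DMSO replicate 3, and 7.90, 1.88 and 0 in LGK-974 replicates 1 to 3. For many genes where DMSO replicate 1 was the highest or lowest library, the log2 fold change is therefore given without it as well. Cardiomyocyte markers were abundant in all libraries, with a summed level of 43300 to 61300 CPM under LGK-974 and 49400 to 68500 CPM under DMSO. CPM here are counts scaled to library size with TMM factors.

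Levels are comparable between genes only per length, and for that the authors' TPM (a unit that allows for transcript length and library total) were summed per gene. Fth1 had the highest TPM level of the 10 genes, 1200 ± 521 in the LGK-974 group and 1010 ± 596 in the DMSO group (SD, n = 3 each). Ftl1 followed with 522 ± 246 and 223 ± 91.9 TPM, then Ftl1-ps1 with 190 ± 99.7 and 72.3 ± 16.7 TPM. Within each of the 6 libraries the order Fth1, Ftl1, Ftl1-ps1, Hmox1 was the same. Hmox1 had 87.0 ± 50.9 and 33.8 ± 9.53 TPM, and Cp 27.3 ± 5.54 and 31.1 ± 11.0 TPM. Hmox1 was above Cp in 5 of 6 libraries, Cp above Tfrc in 5 of 6 and Tfrc above Slc11a1 in 5 of 6, so these neighbours are not cleanly ordered. Slc11a1 was above Slc11a2, and Slc11a2 above Slc40a1, in 6 of 6 libraries. The Slc11a1 sum includes transcripts not annotated as coding, such as Slc11a1-206 of 378 bases with 3.56 of 9.31 TPM in LGK-974 replicate 1. The order is that of sums over all transcripts and was not taken for coding transcripts alone. The lowest mean levels were those of Slc40a1, 1.76 ± 0.766 and 2.21 ± 0.337 TPM, and of Cd5l, 1.57 ± 1.34 and 0.227 ± 0.167 TPM. Much of the spread in TPM between LGK-974 libraries is shared by the genes: LGK-974 replicate 3, which had the smallest mitochondrial share, had the highest TPM of its group for 9 of the 10 genes.

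**Figure D1:**
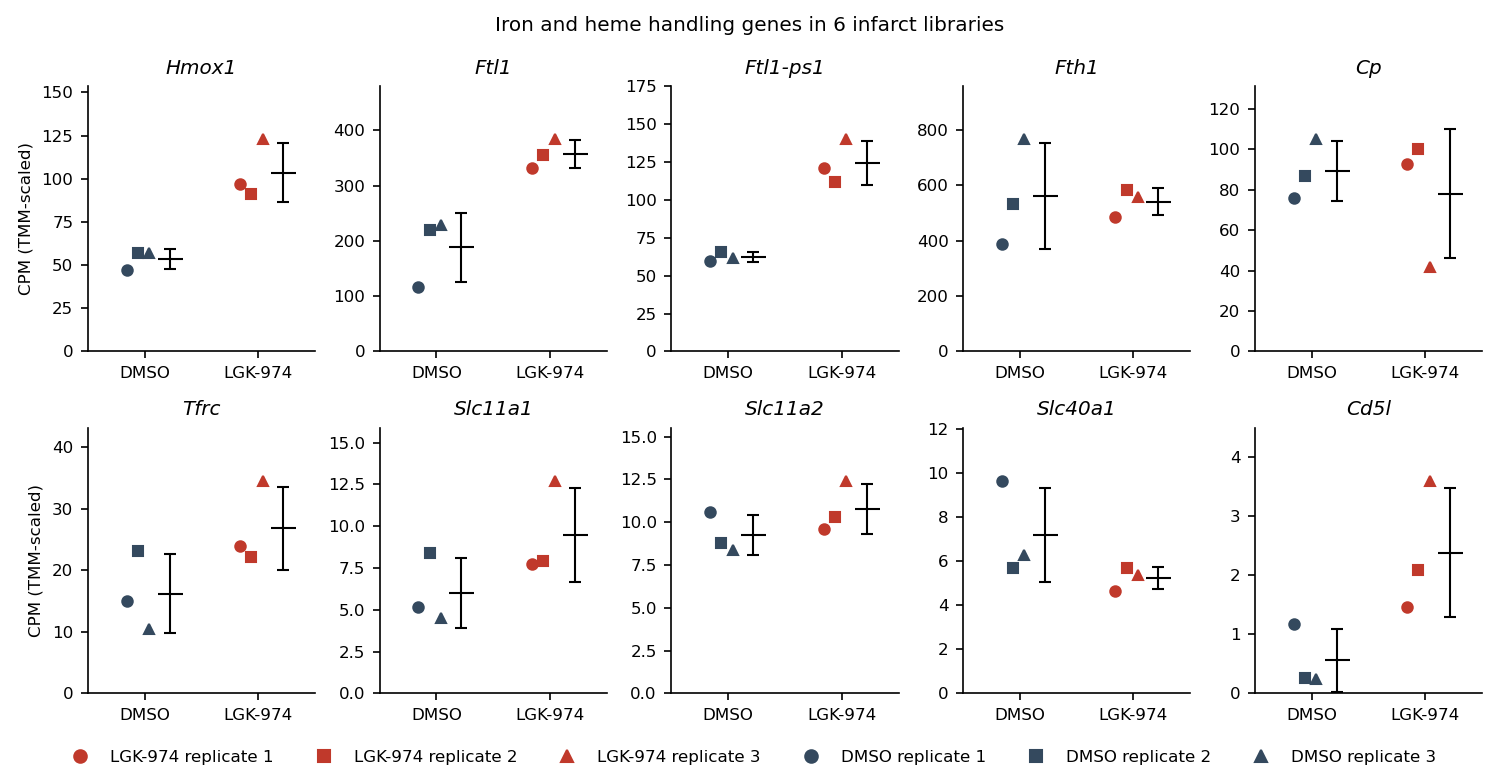
CPM of each gene (vertical axis, TMM-scaled, starting at 0) in the DMSO and LGK-974 libraries; each symbol is 1 library, and the bars beside them are the mean and SD of 3 libraries. Hmox1, Ftl1, Ftl1-ps1 and Cd5l have all LGK-974 libraries above all DMSO libraries, while the other 6 genes overlap.

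All LGK-974 libraries lay above all DMSO libraries for 4 of the 10 genes, Hmox1, Ftl1, Ftl1-ps1 and Cd5l, and for 0 of the 10 did they all lie below. Over all 20076 genes the groups were separated in this way in 10.7% with LGK-974 higher and in 7.26% with LGK-974 lower, and since the 10 genes were selected on this contrast nothing is read from the difference. The median log2 fold change was 0.69 over the 10 genes and −0.13 over all genes tested.

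Heme breakdown is represented by Hmox1, whose gene spans chr8:75093621-75100589 on the plus strand. Hmox1 stood at 96.7, 91.1 and 123 CPM in the LGK-974 libraries and at 46.9, 57.0 and 57.0 CPM in the DMSO libraries. The LGK-974 libraries were all higher, and the lowest of them was well above the highest DMSO library. The log2 fold change was 0.95 (SE, the standard error, 0.183), and without DMSO replicate 1 it was 0.88 (SE 0.178). Nearly all of its counts, 98.5% to 100%, were on the single coding transcript Hmox1-201, and none of its 31-base words occurs in another annotated gene, so the value does not depend on how reads were divided.

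In ferritin, the light chain genes had separated groups and the heavy chain gene did not. The light chain gene Ftl1 (chr7:45457944-45459884, minus strand) had 332, 355 and 384 CPM under LGK-974 and 116, 220 and 228 CPM under DMSO. Ftl1-ps1 (chr13:74399694-74407346, plus strand) had 121, 112 and 140 CPM under LGK-974 and 59.4, 65.8 and 61.9 CPM under DMSO. Both were higher in all LGK-974 libraries, and DMSO replicate 1 was the lowest library for both. In that library 22.5% of Ftl1 counts were on noncoding transcripts, against 1.66% to 3.23% in the other libraries. The log2 fold changes were 0.92 (SE 0.278) for Ftl1 and 0.99 (SE 0.160) for Ftl1-ps1, and without DMSO replicate 1 they were 0.69 (SE 0.186) and 0.98 (SE 0.166). The heavy chain gene Fth1 (chr19:9980598-9985098, plus strand), whose product oxidizes iron as it enters the shell, had 485, 582 and 557 CPM under LGK-974 and 388, 533 and 767 CPM under DMSO. The Fth1 groups overlapped, with a DMSO library at each end of the range, and the log2 fold change was −0.06 (SE 0.281). Leaving out DMSO replicate 3, the highest, turned it to 0.34.

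Reads of the light chain genes cannot be assigned with certainty. Of the 31-base words of Ftl1, 54.5% occur in another gene, and of those of Ftl1-ps1 71.1% do. The 2 genes have 756 words in common. The aligned parts of transcripts Ftl1-201 (968 bases) and Ftl1-ps1-202 (938 bases) were identical at 906 of 910 positions, and the coding sequences at 547 of 549. Both coding differences fall within 60 bases, coding positions 445 to 504, shown here because a read over the coding sequence can tell the genes apart only there. Capitals mark the 2 differing bases.
Ftl1, chr7:45458155-45458214, minus strand: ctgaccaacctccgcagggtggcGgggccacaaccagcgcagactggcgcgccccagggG
Ftl1-ps1, chr13:74407048-74407107, plus strand: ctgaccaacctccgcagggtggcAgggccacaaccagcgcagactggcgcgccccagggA
Exons of Ftl1 also overlap Gm10252 and Gm22133, and those of Ftl1-ps1 overlap Gm47428 and Mir692-3.

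How the quantifier divided the reads is described by the Ftl1-ps1 share of light chain counts, with no test since both genes were selected on this contrast. The share was 26.7%, 23.9% and 26.7% in the LGK-974 libraries and 33.8%, 23.0% and 21.4% in the DMSO libraries. The DMSO libraries lay on both sides of the LGK-974 libraries. The means were 25.8% ± 1.59 (SD, n = 3) and 26.1% ± 6.77 (SD, n = 3), a difference of −0.290 percentage points. Without DMSO replicate 1 the difference was 3.59 percentage points, so its sign rests on that library. The sum of both genes avoids the division. It was 453, 467 and 524 CPM under LGK-974 and 176, 286 and 290 CPM under DMSO, again without overlap, with a log2 fold change of 0.94 (SE 0.246).

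The ratio of Fth1 to summed light chain levels, in TPM, was 1.64, 1.89 and 1.64 in the LGK-974 libraries and 2.58, 2.78 and 4.42 in the DMSO libraries. Every DMSO library had the higher ratio, with a mean of 3.26 ± 1.01 (SD, n = 3) against 1.72 ± 0.144 (SD, n = 3). As the genes were selected on their levels in this contrast, the ratio is a description too. The ratio takes reads of 1 library only, so the scaling between libraries does not enter it.

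Iron uptake and transport genes were less clearly placed. The transferrin receptor gene Tfrc (chr16:32608920-32632794, plus strand) had 23.9, 22.1 and 34.5 CPM under LGK-974 and 15.0, 23.1 and 10.4 CPM under DMSO. DMSO replicate 2 lay above LGK-974 replicate 2, and the log2 fold change was 0.73 (SE 0.308). The phagosomal iron transporter Slc11a1 (chr1:74375195-74386062, plus strand) had 7.73, 7.93 and 12.7 CPM under LGK-974 and 5.18, 8.42 and 4.50 CPM under DMSO (log2 fold change 0.65, SE 0.315). Here too DMSO replicate 2 lay within the LGK-974 range. The transporter of ferrous iron Slc11a2 (chr15:100387898-100425072, minus strand), which moves iron out of endosomes, had 9.62, 10.3 and 12.4 CPM under LGK-974 and 10.6, 8.79 and 8.40 CPM under DMSO (log2 fold change 0.22, SE 0.189). Its groups overlapped through DMSO replicate 1 alone, and without that library the log2 fold change was 0.34 (SE 0.177) with the groups apart. Exons of Slc11a2 overlap Gm5475 on the other strand by 402 bases, and transcripts not annotated as coding held 36.6% to 55.1% of Slc11a1 counts in LGK-974 libraries and 32.5% to 78.1% in DMSO libraries.

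The transcripts of Tfrc and Slc11a2 differ in the hairpins printed above. Tfrc-201, of 4890 bases, holds the 4 listed hairpins, and Tfrc-202, of 1860 bases, ends before them. Transcripts with the element took 63.0%, 75.1% and 70.8% of Tfrc counts in the LGK-974 libraries and 71.6%, 84.3% and 80.5% in the DMSO libraries. The ranges overlapped, and this share was not tested. For Slc11a2, transcript Slc11a2-205 (4415 bases) has the element and Slc11a2-201 (3025 bases) has no match. The share on transcripts with the element was 64.7%, 62.3% and 64.5% under LGK-974 and 65.7%, 69.5% and 65.3% under DMSO. All LGK-974 libraries lay below all DMSO libraries, by a mean difference of 2.99 percentage points (a difference of −2.99, from 63.8% ± 1.31 against 66.8% ± 2.35, SD, n = 3; two-sided exact permutation test, p = 0.1, the smallest that 3 against 3 allows, adjusted over the 2 shares computed 0.2). The design could not reach 0.05, and with the authors' TPM in place of counts the difference was 0.423 percentage points (exact permutation p = 0.8), the opposite sign.

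**Figure D2:**
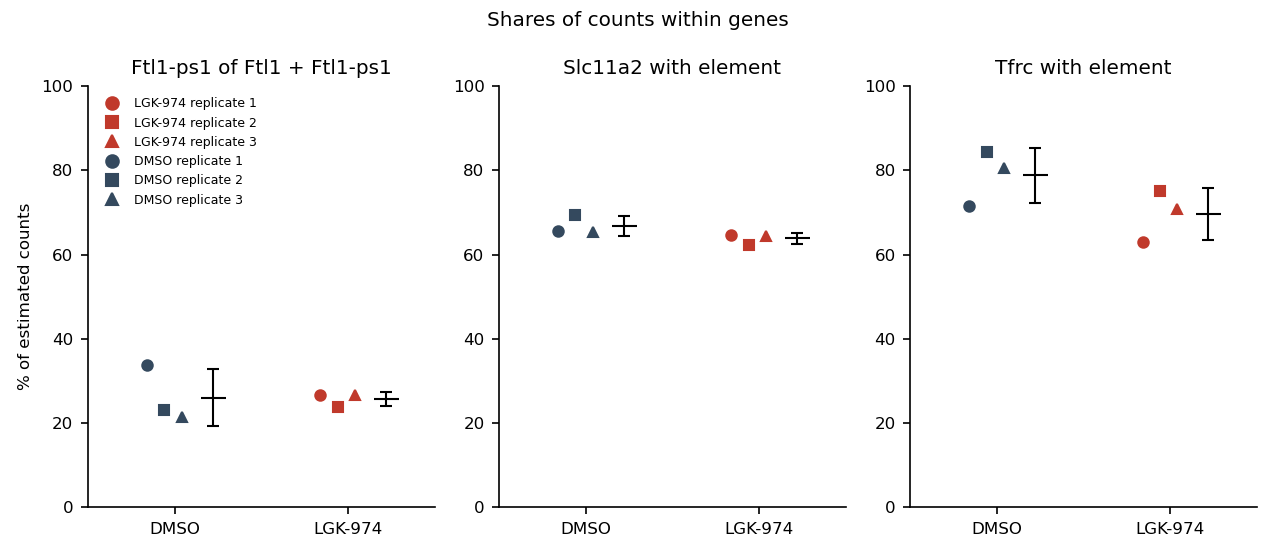
Share of estimated counts, in percent on an axis from 0 to 100, held by Ftl1-ps1 among the light chain genes, and by transcripts with an iron-responsive element for Slc11a2 and Tfrc; symbols are libraries, and bars the mean and SD of 3. The LGK-974 and DMSO libraries interleave for Ftl1-ps1 and Tfrc, and for Slc11a2 the 3 LGK-974 libraries (62.3% to 64.7%) lie just below the DMSO libraries (65.3% to 69.5%).

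Neither export gene had a higher mean under LGK-974, and both groups of libraries overlapped. Ferroportin, Slc40a1 (chr1:45908068-45926523, minus strand), had 4.66, 5.67 and 5.37 CPM under LGK-974 and 9.63, 5.67 and 6.29 CPM under DMSO. The groups met at 5.67 CPM, and DMSO replicate 1 was the highest library. The log2 fold change of −0.46 (SE 0.260) was −0.18 (SE 0.209) without DMSO replicate 1. In that library 63.5% of Slc40a1 counts were on noncoding transcripts, mostly the retained-intron transcript Slc40a1-208 with 181 counts, against 28.6% to 45.2% in the other libraries. Ceruloplasmin, Cp (chr3:19957054-20009145, plus strand), had 92.5, 100 and 41.7 CPM under LGK-974 and 75.8, 86.6 and 105 CPM under DMSO. LGK-974 replicate 3 was far below the other 5 libraries, and the log2 fold change of −0.19 (SE 0.323) turned to 0.17 without it. Cp-202, a coding transcript of 4029 bases, held from 36.3% to 57.0% of the counts of the gene.

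Cd5l (chr3:87357881-87371073, plus strand), made by tissue macrophages and also known as an inhibitor of apoptosis in these cells, had the largest log2 fold change of the 10 genes and the fewest counts. Its estimated counts were 125, 112 and 230 in the LGK-974 libraries and 47, 13 and 10 in the DMSO libraries, or 1.47, 2.09 and 3.60 CPM against 1.18, 0.269 and 0.246 CPM. The lowest LGK-974 library and the highest DMSO library were close, and the other DMSO libraries were far lower. The log2 fold change was 2.08 (SE 0.747), and 3.21 (SE 0.549) without DMSO replicate 1. At the median count per kb of the sensory receptor genes, Cd5l would have had 55.8 counts in DMSO replicate 1, 17.9 in DMSO replicate 2 and 2.34 in DMSO replicate 3. In DMSO replicates 1 and 2 Cd5l thus had no more counts than these receptor genes would give, and its level there cannot be told from that background. In DMSO replicate 3 its 10 counts were above it, the background making up 23.4% of them. Under LGK-974 the same background made up 12.9%, 3.42% and 0% of the Cd5l counts.

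**Figure D3:**
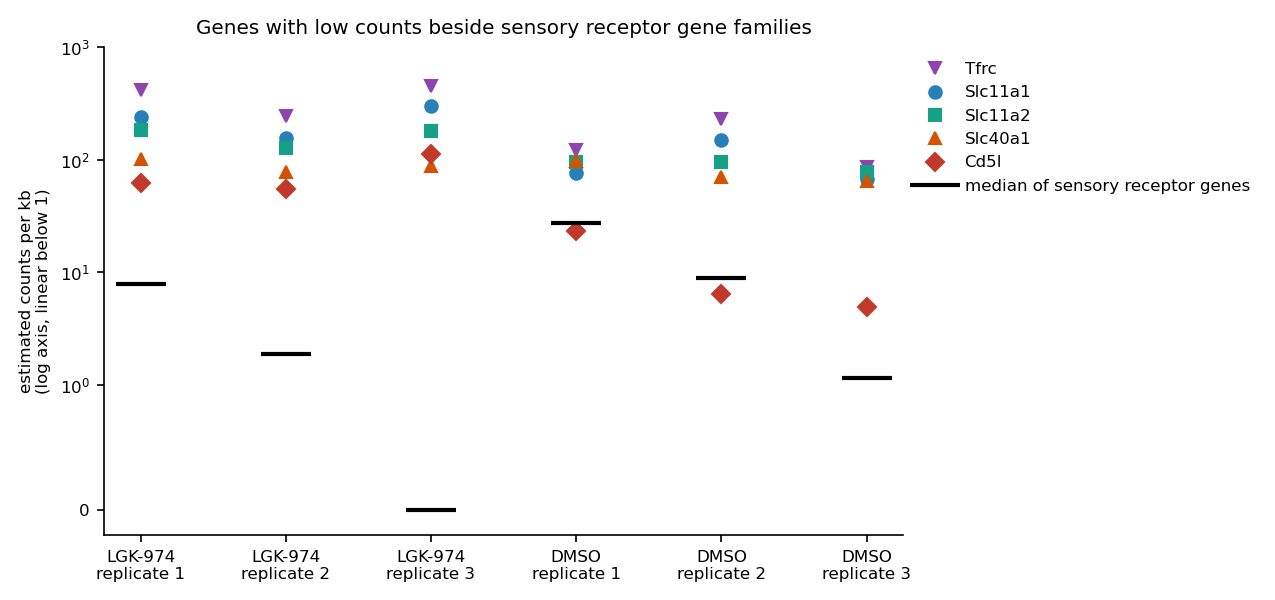
Estimated counts per kb of the 5 genes with the fewest counts per kb (vertical axis, logarithmic above 1 and linear below) in each library, with the median of 2011 sensory receptor genes as a black bar. Cd5l lies above the bar in all LGK-974 libraries and in DMSO replicate 3, and just below it in DMSO replicates 1 and 2, where the bars stand at 27.4 and 8.80.

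For the other low genes the same background was smaller but uneven. In DMSO replicate 1 it amounted to 36.3% of the counts of Slc11a1, 28.6% of Slc11a2, 28.1% of Slc40a1 and 22.5% of Tfrc. In the other libraries it amounted to at most 12.6% for these genes. For Hmox1 it was 2.30% or less in any library, and for Fth1, Ftl1 and Ftl1-ps1 1.09% or less.

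Markers of monocytes and macrophages were mostly higher in the LGK-974 libraries too. Of 16 such markers, 15 had all LGK-974 libraries above all DMSO libraries, and their summed level was 784 to 936 CPM under LGK-974 and 308 to 513 CPM under DMSO, with none of the 16 at 0 in any library. Over all genes the groups were separated upward in 10.7% and downward in 7.26%. By flow cytometry of hearts at the same time after injury, the authors found fewer leukocytes and inflammatory monocytes with LGK-974. Macrophage numbers did not differ significantly there. The marker RNA is therefore not read as a number of cells. Of 8 markers of resident and iron-recycling macrophages, 4 had positive and 4 negative log2 fold changes (median 0.16). Of these 8, 3 were separated upward and 0 downward, and the sums, led by Mrc1, were 228 to 251 against 145 to 199 CPM. Fibroblast markers were separated upward for 4 of 8, with sums of 3140 to 5340 against 1570 to 2320 CPM. Cardiomyocyte markers had negative log2 fold changes for 11 of 12, with a median of −0.43, but 0 of the 12 were separated downward and 1 was separated upward. Red blood cell markers, the source of heme from haemoglobin, summed to only 10.7 to 15.2 CPM under LGK-974 and 14.5 to 17.8 CPM under DMSO. Neutrophil markers summed to 37.0 to 55.4 against 47.4 to 87.3 CPM, and endothelial markers to 525 to 608 against 447 to 639 CPM. The groups thus overlapped for red blood cell, neutrophil and endothelial sums.

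Set against the monocyte and macrophage sum of its own library, Hmox1 had 0.116, 0.116 and 0.132 CPM per marker CPM under LGK-974 and 0.153, 0.111 and 0.130 under DMSO. The groups overlapped on this scale. The light chains together had 0.544, 0.595 and 0.559 per marker CPM under LGK-974 and 0.571, 0.558 and 0.662 under DMSO, overlapping again. Slc11a1 had 0.00926 to 0.0136 against 0.0103 to 0.0168. Cd5l had 0.00177, 0.00267 and 0.00385 per marker CPM under LGK-974 and 0.00384, 0.000524 and 0.000562 under DMSO, so DMSO replicate 1 lay within the LGK-974 range and the other DMSO libraries below it. Fth1 had 0.582 to 0.742 under LGK-974 and 1.04 to 1.75 under DMSO, where every DMSO library was higher. The marker sum was itself higher in every LGK-974 library, so dividing by it lowers a gene that changes little. Fth1 had a log2 fold change of −0.06, and nothing is read from its separation on this scale. Fibroblast sums were also higher in every LGK-974 library and were not used as such a scale. The part of cell composition in these levels was not tested.

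**Figure D4:**
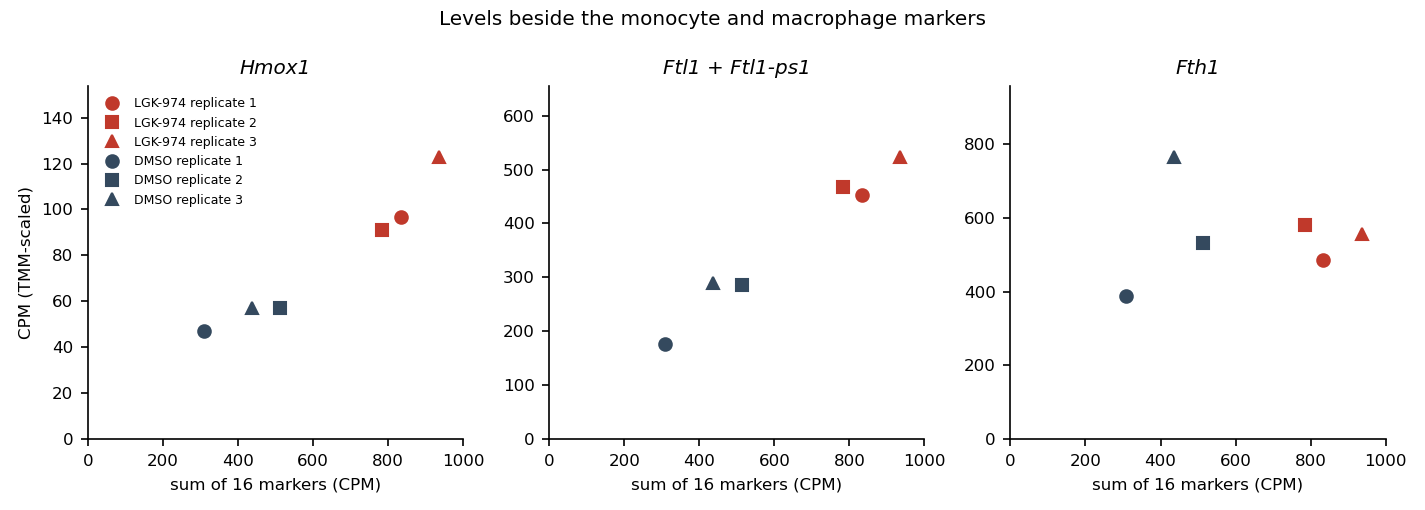
Levels of Hmox1, of Ftl1 and Ftl1-ps1 together, and of Fth1 (vertical axes, CPM from 0) against the summed CPM of 16 monocyte and macrophage markers (horizontal axis) in the 6 libraries, each a symbol. The LGK-974 libraries, with 784 to 936 CPM of marker RNA, also hold more Hmox1 and light chain RNA than the DMSO libraries, for genes selected on this contrast. Within the DMSO group both are lowest in replicate 1, with Hmox1 at 46.9 CPM and the markers at 308 CPM. Hmox1 is at 57.0 CPM in replicates 2 and 3, where the markers sum to 513 and 437 CPM. Fth1 is highest in DMSO replicate 3.

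The genes whose pattern over the 6 libraries was most like that of each described gene were taken as those with the smallest root mean square difference of centred log2 CPM, among 15514 genes with a mean of at least 1 CPM. For Hmox1 they were Olfml2b, Nckap1l and Aspn, at 0.0405 to 0.0723 where the pattern of Hmox1 itself has a size of 0.499. For Ftl1 they were Mfap4, Ctsb and Atf3 (0.0655 to 0.0734), and for Ftl1-ps1 Tlr13, Tmem173 and Cybb (0.0676 to 0.0755). The ranking used the pattern alone, and no cell type is read from the genes it names. For Fth1 they were Leng8, Phospho1 and Sncg (0.0385 to 0.0569), none of them shared with a light chain gene. Tfrc lay closest to Gpr65, Slc11a1 and Sash3 (0.103 to 0.142), so another described gene is among its neighbours. Slc11a1 lay closest to Melk, Hpse and Dnase2a, Slc11a2 to Slc36a4, Coil and Alkbh1, Slc40a1 to Bzw2, Wdr37 and Sh3tc2, and Cp to 2310002L09Rik, Ddb2 and Abca8a. Cd5l had no close neighbour: the nearest, Cdca7l, was at 0.573 of a pattern of size 1.37.

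A wider list of 71 other genes of iron and heme handling, 66 of them past the filter, shows what the rest of the pathway did. None of the 66 passed edgeR's quasi-likelihood test at an adjusted p under 0.05 (count 0, lowest adjusted p = 0.367), as was the case over all genes (0%, or 0 of 20076, with 2698 at an unadjusted p under 0.05). DESeq2 called 0 of these 66 genes as well, against 317 or 1.43% of the 22207 genes to which it gave an adjusted p. At an unadjusted p under 0.05, 3 of the 66 were higher and 4 lower under LGK-974, against 6.26% and 7.18% of all genes. The groups did not overlap in 10 genes with LGK-974 higher (15.2%) and in 3 with LGK-974 lower (4.55%), beside the 10.7% and 7.26% of all genes. With library totals without mitochondrial genes in place of TMM, the split was 11 to 1 for the list and 3420 to 742 for all genes, against 2156 to 1458 with TMM, since that scaling moved the median of all genes from −0.13 to 0.08. The median log2 fold change of the list was −0.04, and its sign depended on the setting. It was 0.17 with totals without mitochondrial genes, 0.08 without the filter and 0.14 without DMSO replicate 3.

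**Figure D5:**
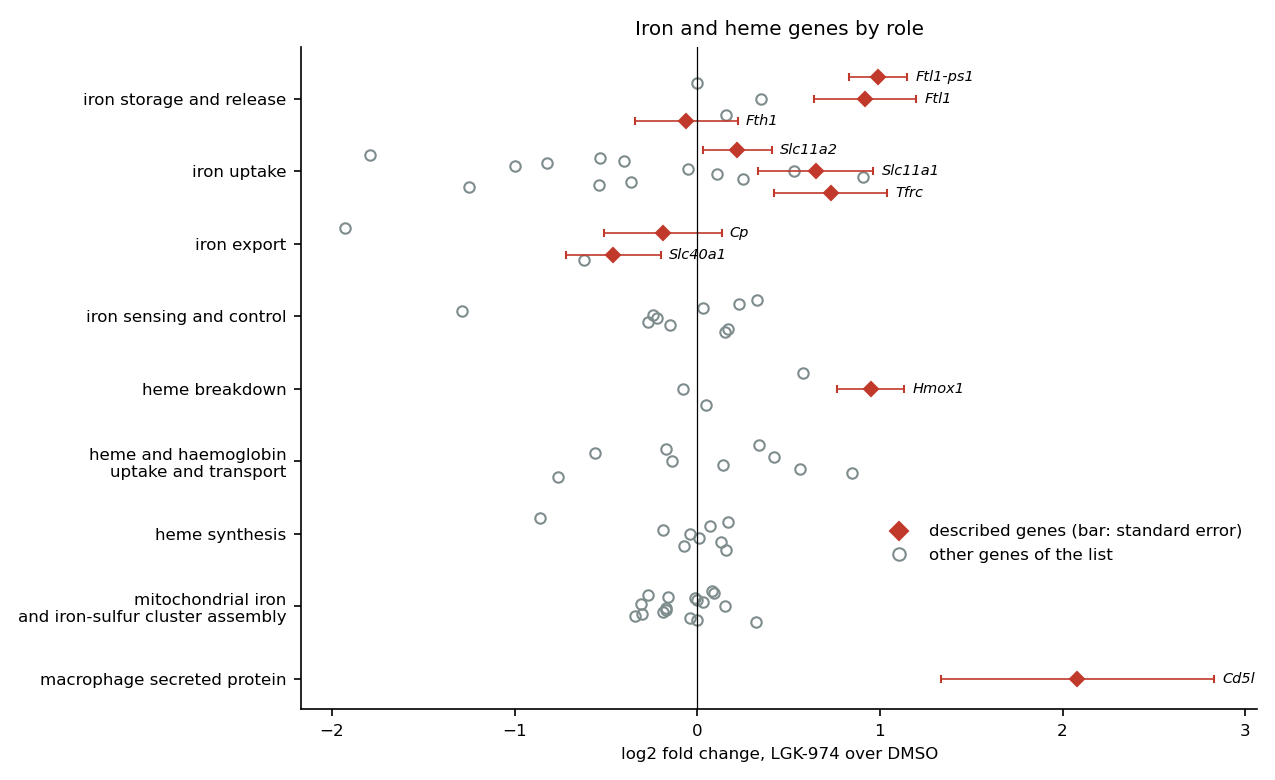
Log2 fold changes, LGK-974 over DMSO (horizontal axis), of the genes of iron and heme handling in rows by role; red diamonds are the 10 described genes with their standard errors, and grey circles the other 66 genes tested. The light chain genes, Hmox1 and Cd5l lie toward the right of their rows, and the circles lie on both sides of 0 with a median of −0.04.

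Among the other genes of heme breakdown, Blvrb, which reduces biliverdin, had 10.8, 10.04 and 9.40 CPM under LGK-974 and 5.96, 6.93 and 7.32 CPM under DMSO. All LGK-974 libraries were higher (log2 fold change 0.58, adjusted p = 0.367 by edgeR). Hmox2, the constitutive heme oxygenase, and Blvra, the other biliverdin reductase, had log2 fold changes of 0.05 and −0.08 (adjusted p = 0.929 and 0.903 by edgeR), whose signs turned under several settings.

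In heme and haemoglobin uptake and transport, 4 of 9 genes tested were separated upward and 0 downward, beside 10.7% and 7.26% of all genes, and none passed the test. Hp, or haptoglobin, which binds free haemoglobin, had 5.11, 4.03 and 3.84 CPM under LGK-974 and 1.76, 2.65 and 2.80 CPM under DMSO (log2 fold change 0.85, adjusted p = 0.367 by edgeR). Lrp1, the receptor for heme bound to hemopexin, had 623, 600 and 675 CPM against 309, 478 and 501 CPM (log2 fold change 0.56, adjusted p = 0.367 by edgeR). Pgrmc1, a heme-binding membrane protein, had a log2 fold change of 0.34 (adjusted p = 0.376 by edgeR). Without DMSO replicate 1, the lowest library for each, the log2 fold changes of Hp, Lrp1 and Pgrmc1 were 0.69, 0.39 and 0.24. The fourth, Flvcr1, a heme exporter (log2 fold change 0.42), was named after its values were seen.

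Among 13 other uptake genes tested, 2 were separated upward and 1 downward (15.4% and 7.69%), beside 10.7% and 7.26% of all genes. Trf, which encodes transferrin, had 5.22, 5.75 and 6.30 CPM under LGK-974 and 8.42, 7.86 and 8.77 CPM under DMSO. It was lower in all LGK-974 libraries (log2 fold change −0.54, adjusted p = 0.367 by edgeR). Steap3, a ferrireductase of endosomes, had a log2 fold change of 0.53, and Scara5, a receptor for ferritin, of −1.0 (both adjusted p = 0.367 by edgeR). Without DMSO replicate 1 they were at 0.37 and −1.02. Slc39a14, a transporter of iron not bound to transferrin and named after its values were seen, was the other gene separated upward (log2 fold change 0.25). Lrp2, also named afterwards, had an unadjusted p of 0.0477 with 13.1 CPM in DMSO replicate 1 and 0.983 to 4.84 CPM in the other 5 libraries. Ltf did not pass the filter.

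In the remaining roles too, no gene passed the test. Of the genes that hold or release stored iron, the ferritin receptor for autophagy Ncoa4 and the iron chaperones Pcbp1 and Pcbp2 had log2 fold changes of 0.16, 0.35 and 0.00 (adjusted p = 0.606, 0.455 and 0.998 by edgeR), and Ftmt did not pass the filter. Without DMSO replicate 1 Ncoa4, Pcbp1 and Pcbp2 were at 0.08, 0.19 and −0.14. Of the export genes, the ferroxidases Heph and Hephl1 had −0.62 and −1.93 (adjusted p = 0.517 and 0.547 by edgeR), and without DMSO replicate 1 they were at −0.05 and −1.04. Hamp and Hamp2, the hepcidin genes of liver, did not pass the filter. In sensing and control, 3 of 10 genes were separated upward and 0 downward, beside 10.7% and 7.26% of all genes. They included Nfe2l2 and Bach1, an activator and a repressor of Hmox1 transcription, with log2 fold changes of 0.33 and 0.23 (adjusted p = 0.394 and 0.436 by edgeR). Without DMSO replicate 1 Nfe2l2 and Bach1 were at 0.22 and 0.19. Ireb2, an iron regulatory protein named after its values were seen, was the other, with 0.17. Hfe was at −0.27 (adjusted p = 0.538 by edgeR).

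In heme synthesis, Fech, which inserts iron into the ring, had 70.6, 73.4 and 49.6 CPM under LGK-974 and 185, 87.7 and 79.0 CPM under DMSO. It was the only one of 9 genes of that role with separated groups, 11.1% lower beside 7.26% of all genes. Its log2 fold change was −0.86 (adjusted p = 0.367 by edgeR), and −0.35 without DMSO replicate 1. Alas1, the first enzyme of the route, was at 0.16 and Urod at −0.19 (adjusted p = 0.657 and 0.683 by edgeR). Of 17 mitochondrial iron and iron-sulfur cluster genes, only Isca1, an assembly protein, had separated groups, 5.88% lower beside 7.26% of all genes. Isca1 had 49.7, 60.1 and 52.4 CPM under LGK-974 and 68.5, 67.6 and 65.2 CPM under DMSO (log2 fold change −0.31, adjusted p = 0.370 by edgeR). Slc25a37, the mitochondrial iron importer, and Abcb8 had 0.32 and −0.34 (adjusted p = 0.506 and 0.501 by edgeR). Without DMSO replicate 1 they were at 0.12 and −0.53.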

How the data were processed

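Transcript abundances of 3 LGK-974 and 3 DMSO libraries were analysed. RNA was isolated with Trizol, depleted of ribosomal RNA and made into libraries with a capture kit. The authors quantified transcripts with Kallisto on an Ensembl GRCm38 index and deposited estimated counts, TPM and transcript lengths for 118489 transcripts per library. Kallisto's version, read trimming and use of strand are not given in the sources used here. Reads shared by similar transcripts are divided by the program, which touches Ftl1 and Ftl1-ps1 most.

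Of the transcripts, 98.5% were joined to GENCODE M21 genes. Each gene was given the rounded sum of its estimated counts, and a gene was kept if 3 or more libraries had 10 counts or more. Fold changes and tests come from edgeR 4.0.16 (quasi-likelihood, TMM, treatment only, Benjamini-Hochberg, threshold 0.05) in R 4.3.3, with DESeq2 1.42.0 as an alternative. The standard error is the log2 fold change divided by the square root of its F statistic. The scripts were tested on simulated data. The Slc11a2 transcript share was compared with an exact permutation test (SciPy 1.17.1); the planned test of the Ftl1-ps1 share is not reported, since both genes were selected on the contrast. Sequences were read from the GENCODE M21 transcripts.

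The 10 genes, the wider list and the marker lists were chosen with earlier results of these data known. Other named genes are, per role, up to 3 with the smallest unadjusted p, and per described gene the 3 most similar patterns; exceptions are stated. Fdx2 and Hjv were matched through older symbols, and Ahsp was not matched. Labels give the replicates by number only, and the authors report 3 mice per group for sequencing. Depth (41579787 to 80398211 estimated counts) limits precision only for genes with few counts such as Cd5l. Alternatives changed the normalization, filter, test, replicate block, transcripts counted and libraries; counts on coding transcripts only and counts less a background were chosen after seeing the data.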

Additional observations from a re-analysis of the deposited data

How the results depend on the processing

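With 3 libraries a group, no gene of the list was called by edgeR with TMM and the filter, and the signs of small fold changes depend on single libraries. Without the filter on low counts, 1210 genes and 1 gene of the list (Lrp2, high in DMSO replicate 1) passed, and DESeq2 called 317. Leaving out 1 library gave 0 to 2 called genes, 4477 to 9205 genes with separated groups and 14 to 23 such genes in the list, the highest without DMSO replicate 3; smaller groups overlap less by construction. Hmox1, Ftl1, Ftl1-ps1 and Cd5l, selected on this contrast, had log2 fold changes over the alternatives from 0.79 to 1.15, 0.69 to 1.18, 0.81 to 1.20 and 1.72 to 5.04. With all 6 libraries, Slc40a1 was separated downward with DESeq2 size factors in edgeR and with DESeq2, Slc11a2 upward with totals without mitochondrial genes, and Tfrc and Slc11a2 upward without the filter. The 5.04 for Cd5l is that of counts less background, which takes DMSO replicates 1 and 2 to 0.

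Fth1 turned to 0.12 with totals without mitochondrial genes, 0.05 without the filter, and ranged from −0.25 to 0.34 with 1 library left out (0.01 without LGK-974 replicate 1). Cp ranged from −0.35 to 0.17 (0.06 without DMSO replicate 3). The Ftl1-ps1 share differed by 0.654 percentage points in TPM and by −2.64 to 3.59 with 1 library left out (0.628 without LGK-974 replicate 2), and the Slc11a2 share by 0.423 in TPM. Alas1 turned to −0.09 on coding transcripts. Urod turned to 0.01 without mitochondrial totals and 0.03 without DMSO replicate 3 (range with 1 library left out −0.37 to 0.03). Blvra turned to 0.17 without mitochondrial totals, 0.11 without the filter or LGK-974 replicate 2, 0.19 without DMSO replicate 1 and 0.24 on coding transcripts (−0.19 to 0.19 with 1 library left out). Hmox2 turned to −0.14 without DMSO replicate 1 and −0.06 less background (−0.14 to 0.32 with 1 library left out). These causes were not tested.

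The labels do not say whether the replicate numbers pair the mice. Deviations of same-numbered libraries correlated at 0.475, −0.0485 and 0.391 across genes, and those of different-numbered libraries at −0.518 to 0.101. Whether libraries of the same number share anything was not tested. With the replicate block 0 genes were called (3314 at an unadjusted p under 0.05), and the median of the list was −0.03.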
